A study of Caenorhabditis elegans with 2 samples.

Results

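The genes described here encode the factors that start translation and move the ribosome along the message in Caenorhabditis elegans. They were taken from the Ensembl annotation of WBcel235 by symbol: protein-coding genes whose names begin with eif-, iff-, iffb-, ife-, ifg- or eef-, together with drr-2 and inf-1. This gave 42 genes, 36 for initiation and related factors and 6 for elongation, out of 19973 protein-coding genes on the 6 nuclear chromosomes. A symbol rule leaves out factors that carry another name, such as egl-45, and it takes in eif-4A3, whose product is the helicase of the exon junction complex.

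In initiation, eIF2 carries the initiator tRNA and is recharged by the exchange factor eIF2B, eIF3 holds the small ribosomal subunit, and the eIF4 factors bind the cap and unwind the leader. eIF1 and eIF1A guide scanning to the start codon and eIF5B joins the subunits. In elongation, eEF1A brings each aminoacyl-tRNA, the eEF1B complex recharges eEF1A, and eEF2 moves the ribosome on, while eIF5A helps at stretches where the ribosome stalls.

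The data are a chromatin immunoprecipitation with sequencing (ChIP-seq) of CEH-16, an engrailed-class homeodomain transcription factor. Whole L2 larvae of mixed sex were used, of strain OP82, which carries unc-119(tm4063) and the eGFP-tagged ceh-16 insertion wgIs82. There is 1 group with 2 biological replicates and no second stage, factor or genotype, and the control library was not analysed here. All larvae come from 1 transgenic line, and the promoter of the insertion is not given in the sources used here.

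Lists of intervals were analysed here and no read counts were used, so the depth behind a value is not known from them. A thresholded list of 1358 intervals passed the irreproducible discovery rate (IDR) procedure, which compares the ranks of intervals between replicates. An interval in that list can still differ in rank between the replicates or overlap an interval in only 1 of them. Longer relaxed lists also contain weak background intervals. Replicate 1 has 28214 of them, replicate 2 has 30000, and a list called on the pooled reads has 30000 as well. Signal is the enrichment value of the authors' peak caller. It ran from 23.2 to 190 in the IDR list, and each list is on its own scale. For each replicate, the top intervals are the 1358 of highest signal, which means at least 13.6 in replicate 1 and 13.3 in replicate 2. A gene was counted when the 5′ end of any of its annotated transcripts was at most 1000 bp from a summit. Many worm messages are trans-spliced, so that end is often not the place where transcription starts.

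Sequences at the summits are shown for 5 strong intervals and for the weaker ones of eef-1G and eif-1.A, because the account of motifs refers to them. Each is 61 bases of WBcel235 centred on the IDR summit, on the strand of the named gene. Capitals mark the motif GAGAG or the motif CCGCCC or the motif CTGCGT on either strand. The last was chosen after the sequences were seen. The eif-3.C interval, also strong with an IDR signal of 93.7, is not printed, and its summit window held none of these motifs.
iff-2, II:8561397-8561457, minus strand: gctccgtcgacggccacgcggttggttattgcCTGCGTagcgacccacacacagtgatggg
drr-2, III:13643697-13643757, minus strand: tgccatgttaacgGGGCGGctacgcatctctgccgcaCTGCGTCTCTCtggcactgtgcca
eef-1A.1, III:6972069-6972129, minus strand: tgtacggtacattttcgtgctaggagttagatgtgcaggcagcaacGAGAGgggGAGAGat
eef-1A.2, X:7823263-7823323, plus strand: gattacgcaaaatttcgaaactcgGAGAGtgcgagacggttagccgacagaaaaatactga
eif-3.B, II:14795146-14795206, plus strand: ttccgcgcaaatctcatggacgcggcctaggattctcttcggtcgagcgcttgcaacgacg
eef-1G, V:10965646-10965706, plus strand: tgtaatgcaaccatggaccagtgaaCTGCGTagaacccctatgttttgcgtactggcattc
eif-1.A, IV:4810557-4810617, plus strand: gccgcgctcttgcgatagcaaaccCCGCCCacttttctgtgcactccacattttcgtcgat

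In the IDR list a CEH-16 interval had its summit within 1000 bp of 12 of the 42 genes (28.6%). By the same rule 4.74% of all protein-coding genes were counted. Elongation factors made up 5 of the 12, from only 6 elongation genes. The 36 genes for initiation and related factors, with the 2 eIF5A genes and eif-6 among them, gave 7 (19.4%). Each of the 12 genes had a single IDR interval within the window, and no interval served 2 of them. Their median signal was 38.2, beside 33.8 for the 934 other genes with an IDR interval. Of the 12 intervals 3 ranked in the first 100 of the list, as did 55 of all 755 IDR intervals near 5′ ends. Of the 12, 8 lay at or above the list's median signal, where 50.1% of the 755 did.

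The single replicates gave similar totals from partly different genes. Top intervals of replicate 1 lay at 10 of the 42 genes (23.8%, where 4.52% of protein-coding genes were counted), and those of replicate 2 at 11 (26.2%, background 5.11%). Both replicates had a top interval at 7 genes (16.7%, background 2.72%): iff-2, eif-3.C, drr-2, eef-1A.1, eef-1A.2, eif-3.B and eif-2Bgamma. The 1358 strongest pooled intervals marked 13 genes (31.0%, background 4.98%). When a summit was given only to the gene with the nearest 5′ end, 11 genes were counted (26.2%, background 3.53%). With these lists and rules alike, the share of the translation factor genes stood above the background share. Only 2 replicates exist and the members were chosen with results known, so no test was made of that excess.

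**Figure D1:**
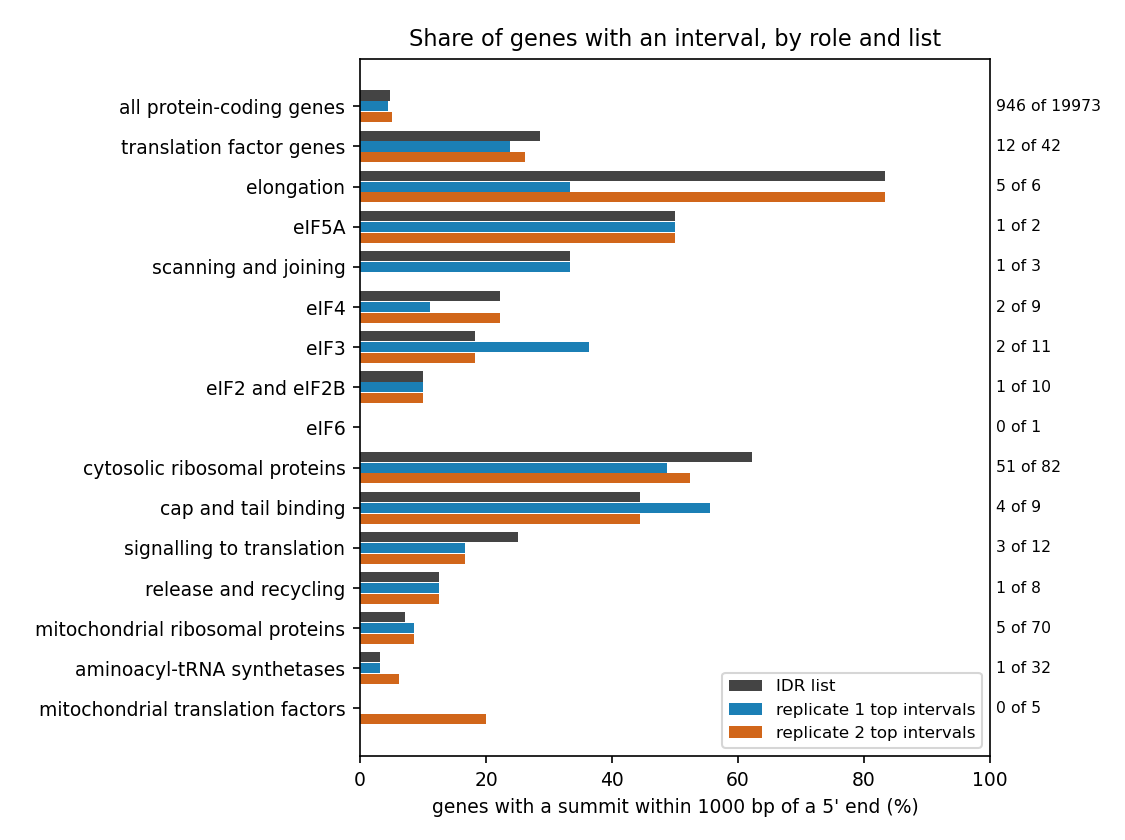
The horizontal axis gives the percentage of genes with a summit within 1000 bp of a 5′ end, for all protein-coding genes, the translation factor genes by role and other translation lists. Bars show the IDR list, the top intervals of replicate 1 and those of replicate 2, and the numbers at the right count the IDR list. Elongation factors stand at 5 of 6 in the IDR list and in replicate 2 but at 2 of 6 in replicate 1.

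Elongation factor genes were marked at 5 of 6 in the IDR list. With the nearest 5′ end only, 4 of the 6 were counted, and eef-1A.1 was lost. Of the 5 intervals, 4 were shared with a gene that starts head to head with the elongation gene. eef-1A.1 and eef-1A.2 encode eEF1A, and both had a top interval in each replicate. The eef-1A.1 interval, III:6971951-6972246, had an IDR signal of 58.7, with 26.1 in replicate 1 and 35.8 in replicate 2. The eef-1A.2 interval, X:7823145-7823440, had 55.7, with 38.2 and 22.5. The order of the paralogs thus turned between the replicates, so their difference was no larger than the replicate spread. Every 31-mer of both intervals occurs once in the genome, although the genes themselves are close copies.

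The other 3 marked elongation genes owed their top rank to replicate 2. eef-2, which encodes the translocase, had an IDR signal of 36.6 at I:9163365-9163660, with 12.7 in replicate 1 and 28.2 in replicate 2. eef-1B.1, an exchange subunit of the eEF1B complex, had 36.0 at III:7973235-7973530, with 9.27 and 22.3. eef-1G, the gamma subunit of that complex, had 28.9 at V:10965528-10965823, with 12.8 and 16.3. In replicate 1 eef-1G and eef-2 fell just below the lowest top signal of 13.6, at ranks 1514 and 1543, and eef-1B.1 lay further down at rank 2702. With the top intervals of replicate 1 alone 2 of the 6 elongation genes were counted, and with those of replicate 2 alone 5.

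eef-1B.2, the paralog of eef-1B.1, was the elongation gene without an IDR interval. Its strongest intervals had signals of 12.9 in the pooled list, 5.44 in replicate 1 and 6.29 in replicate 2. In each of these lists eef-1B.1 was the higher of the pair, by 37.9 to 12.9 in the pooled list. The nearest IDR summit to eef-1B.2 was 134 kb away.

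The eIF5A gene iff-2 carried the strongest interval of the whole set. Its interval at II:8561368-8561489, only 122 bp wide, had an IDR signal of 113.9 and rank 12 of 1358. The value was 73.4 in replicate 1 (rank 9) and 45.9 in replicate 2 (rank 52). The paralog iff-1, known as the germline eIF5A gene, had no IDR interval. Its strongest intervals had signals of 21.5 in the pooled list, 3.12 in replicate 1 and 12.7 in replicate 2, so iff-2 was the higher in each of these lists.

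In the eIF4 group 2 of 9 genes had an IDR interval. drr-2, which encodes an eIF4H-like factor, had a signal of 89.7 at III:13643579-13643874, rank 44, with 52.3 in replicate 1 and 47.1 in replicate 2. ife-2, one of the eIF4E cap-binding isoforms, had 24.0 at X:382771-383066, rank 1272, with 7.75 and 16.2, and it had a top interval in replicate 2 alone. The replicates gave drr-2 close values, while ife-2 in replicate 1 lay below the lowest top signal of 13.6.

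The other eIF4E genes carried weaker intervals than ife-2 in the pooled list, where ife-2 had 27.7. ife-1 had 11.1 there, ife-4 had 8.90, ife-3 had 8.73 and ife-5 had 3.90. The replicates did not keep that order, since ife-1 had 9.39 in replicate 1, above the 7.75 of ife-2, and 3.47 in replicate 2. inf-1, the gene of the eIF4A helicase, had 8.56 in the pooled list and ifg-1, the gene of the eIF4G scaffold, had 4.65. Both lay far below the lowest top signal of the pooled list, 25.1, as did eif-4A3 at 4.91.

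eIF3 genes were marked at 2 of 11. eif-3.C, a core subunit gene, had an IDR signal of 93.7 at I:9979750-9980045, rank 33, and its replicates gave nearly equal values of 46.3 and 45.3. eif-3.B, another core subunit gene, had 39.8 at II:14795028-14795323, with 19.3 in replicate 1 and 28.4 in replicate 2.

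Among the 9 eIF3 genes without an IDR interval, eif-3.E came nearest to having one. Its pooled interval had a signal of 28.7, above the IDR minimum, with 11.3 in replicate 1 and 12.1 in replicate 2, neither of them a top interval. It was the only translation factor gene outside the IDR list with a pooled signal at or above that minimum. In the whole pooled list 214 of 1543 such intervals overlapped no IDR interval. Each list is on its own scale, so that minimum is only a rough mark for pooled signals. By the lowest top signal of the pooled list, 25.1, eif-3.E was again the only translation factor gene outside the IDR list to pass. eif-3.I and eif-3.G had a top interval in replicate 1 alone, with 15.9 and 15.2 there and 3.28 and 7.57 as their strongest values in replicate 2. The others with a pooled interval lay between 5.77 (eif-3.K) and 10.7 (eif-3.D). eif-3.F appeared in replicate 2 alone, at 2.46, and eif-3.L was the only one of the 42 genes with no interval in any list.

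eIF2, eIF2B and the other genes named eif-2 gave 1 IDR gene of 10. This is the group in which the tRNA carrier and its exchange factor lie, and also eif-2A and eif-2D, whose products are separate factors despite their names. eif-2Bgamma had a signal of 30.3 at II:6968460-6968755, with 25.6 in replicate 1 and 14.3 in replicate 2. Its summit lay 960 bp upstream of the gene, inside an intron of C15F1.5, and 50 bp from the start of sup-39, annotated as a small nuclear RNA gene. Of the 31-mers of this interval 90.2% occur once in the genome, against 100% for the other 11 intervals. The assignment to eif-2Bgamma rests on the rule alone, since that gene has the only protein-coding 5′ end within 1000 bp of the summit. Noncoding genes began nearer to the summit.

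The eIF2 genes themselves had low values. eif-2beta had a pooled signal of 8.92 and eif-2gamma of 8.70, while eif-2alpha had no pooled interval and appeared in replicate 1 alone, at 2.71. Of the remaining eIF2B genes eif-2Bbeta was the strongest, at 17.3 in the pooled list and 10.6 in replicate 2, with no interval in replicate 1. eif-2Bdelta had 12.6, eif-2Balpha 10.2 and eif-2Bepsilon 5.12. The replicates differed widely at some of these genes. eif-2Balpha had 10.2 in replicate 1 and 2.23 in replicate 2, and eif-2gamma had 2.31 and 6.93. eif-2D (5.25) and eif-2A (4.08) were among the lowest pooled values.

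In the scanning group eif-1.A, the eIF1A gene, had the only IDR interval of 3 genes. Its signal was 25.7 at IV:4810439-4810734, with 18.2 in replicate 1 and 4.22 in the overlapping interval of replicate 2, which ranked 10703. A stronger replicate 2 interval in the window, at 5.20, did not overlap the IDR interval. No other of the 12 intervals differed as much between replicates, and with the top intervals of replicate 2 alone eif-1.A was not counted. eif-1, the eIF1 gene, was found in replicate 1 alone, at 5.26, and iffb-1, the eIF5B gene, had 5.91 in the pooled list. eif-6, whose product keeps the ribosomal subunits apart, had 7.79.

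**Figure D2:**
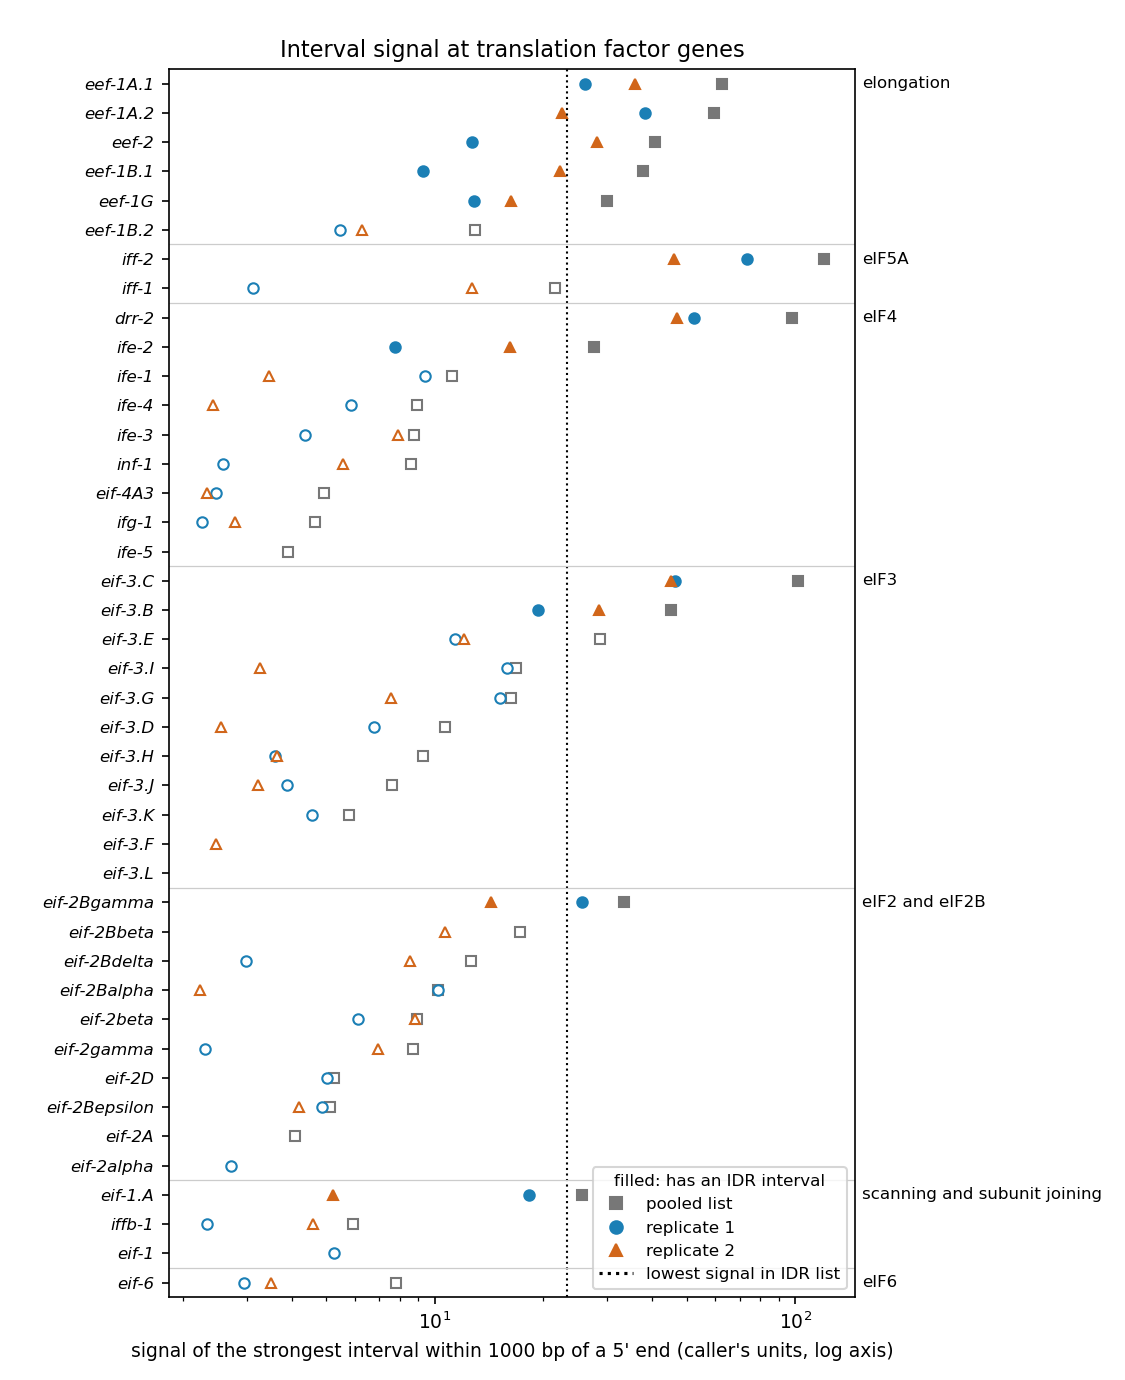
Signal of the strongest interval within 1000 bp of a 5′ end (horizontal log axis, caller's units) for each of the 42 genes, grouped by role, in the pooled list and in replicates 1 and 2. Filled symbols mark the 12 genes with an IDR interval, and the dotted line at 23.2 is the lowest signal in the IDR list. Each list is on its own scale, so the line is only a rough mark for the symbols. Open pooled symbols lie to the left of the line except that of eif-3.E, at 28.7.

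The relaxed lists reached most of the remaining genes at low values. The pooled list held an interval at 38 of the 42 genes (background 52.8%), replicate 1 at 37 (background 50.9%) and replicate 2 at 35 (background 53%). Over the 30 genes without an IDR interval, 26 had a pooled interval, as did 9595 of the 19027 protein-coding genes without one. The 26 had signals from 3.90 to 28.7 and a median of 8.81. The median for the 9595 was 6.81. In the replicates the corresponding medians were 4.54 against 4.26 for replicate 1 and 4.20 against 3.92 for replicate 2. These medians cover only the genes with an interval in the list concerned, which were 25 of the 30 in replicate 1 and 23 in replicate 2.

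The window of 1000 bp decided few genes. Just inside it was eif-2Bgamma at 960 bp. Just outside were ife-3, with an IDR summit 1160 bp away, and eif-6, with one at 1999 bp. For the remaining genes without an IDR interval the nearest IDR summit was between 3.08 kb (eif-2beta) and 134 kb (eef-1B.2) from a 5′ end.

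Replicate values at the 12 intervals spread about as widely as elsewhere. The log2 ratio of replicate 2 to replicate 1 ran from -2.11 at eif-1.A to 1.26 at eef-1B.1, with 6 intervals higher in each replicate. Its median size was 0.72, beside 0.57 for the 730 other IDR intervals near 5′ ends that overlap an interval in both replicates. Ratios larger than 1 in size occurred at 4 of 12 (33.3%), namely eif-1.A, eef-1B.1, eef-2 and ife-2, and at 29.6% of the others. The scales of the lists were not adjusted to each other, so these ratios include any difference in scale. Across the 12 intervals the log2 signals of the replicates had a Pearson r of 0.51 and a Spearman rho of 0.70, as a description. Across the 730 others the values were 0.16 and 0.19. All these intervals come from the IDR list, which was made from these replicates, and the points of each replicate share 1 library.

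**Figure D3:**
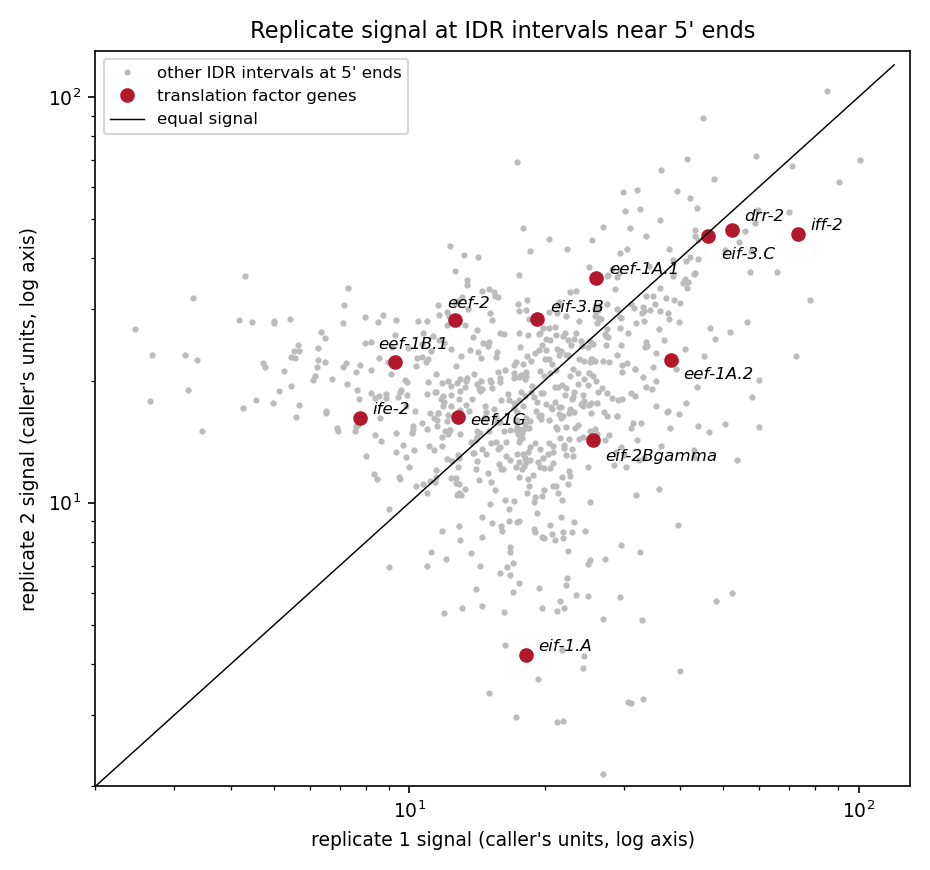
Signal in replicate 1 (horizontal) against replicate 2 (vertical), both log axes in the caller's units, for IDR intervals near 5′ ends that overlap an interval in both replicates. The 12 labelled points are translation factor genes and the 730 grey points are the others. iff-2, drr-2 and eif-3.C lie at the upper right, and eif-1.A lies far below the line of equal signal, at 18.2 and 4.22.

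Summits lay upstream of the gene at 11 of the 12, and the last, at eef-1B.1, lay 3 bp downstream in its UTR. Among the 755 IDR intervals near 5′ ends 84.2% lay upstream of the nearest gene. The distance to the 5′ end of the translation factor gene had a median of 219 bp and ran from 3 to 960 bp. For the 755 the distance was taken to the nearest 5′ end, and its median was 244 bp. Within 100 bp lay 4 summits, those of eef-1B.1 (3 bp), eef-2 (18 bp), eef-1G (43 bp) and iff-2 (60 bp), so 3 of the 4 belong to elongation genes. Of the 755, 20% were that close to their nearest 5′ end. The eef-1B.1 position differed between the replicates. Its strongest interval had its summit 143 bp upstream in replicate 1 and 3 bp downstream in replicate 2. Both eEF1A genes had their summit further out, at 387 bp for eef-1A.1 and 361 bp for eef-1A.2. Apart from the UTR summit of eef-1B.1 and the intronic one of eif-2Bgamma, the summits were intergenic.

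Many of these summits were shared with a gene that is read in the opposite direction. At 7 of the 12 intervals (58.3%) the 5′ end of a second protein-coding gene lay within 1000 bp of the summit, head to head with the translation factor gene, while 31.1% of the 755 intervals had 2 or more genes in reach. At eef-1A.1 the neighbour rfc-4, which encodes a replication factor C subunit, was nearer to the summit, at 154 bp against 387 bp. The drr-2 summit lay almost midway, 157 bp from drr-2 and 189 bp from set-16, an MLL-class histone methyltransferase gene. ctf-4 began 137 bp from the eef-1G summit, clsp-1, a claspin-like gene, 247 bp from that of eef-2, and aco-2, the mitochondrial aconitase gene, 334 bp from that of eef-1B.1. F54C9.14 lay 875 bp from the iff-2 summit and H06H21.37 lay 613 bp from that of eif-1.A. A peak between 2 such genes cannot be given to one of them from its position.

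Head-to-head neighbours were common among the translation factor genes whether or not they had an IDR interval. A 5′ end on the opposite strand lay within 1000 bp upstream at 22 of the 42 genes (52.4%), at 7 of the 12 with an IDR interval and at 15 of the 30 without (50%). The share was 18.7% over all protein-coding genes and 40.9% over the 946 with an IDR interval. That last share counts both genes of a pair when 1 summit lies between them.

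Noncoding genes began within 1000 bp of 5 of the 12 summits. The closest was the miRNA gene cel-mir-5549, 14 bp from the eef-1A.1 summit. The eif-2Bgamma summit had sup-39, mir-1831 (57 bp), C15F1.14 (216 bp) and the piRNA gene 21ur-14704 (270 bp) in reach. The ncRNA gene F54H12.9 began 56 bp from the summit of eef-1B.1. The ncRNA gene R03G5.8 began 232 bp from that of eef-1A.2, and the snoRNA gene F54C9.12 655 bp from that of iff-2.

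**Figure D4:**
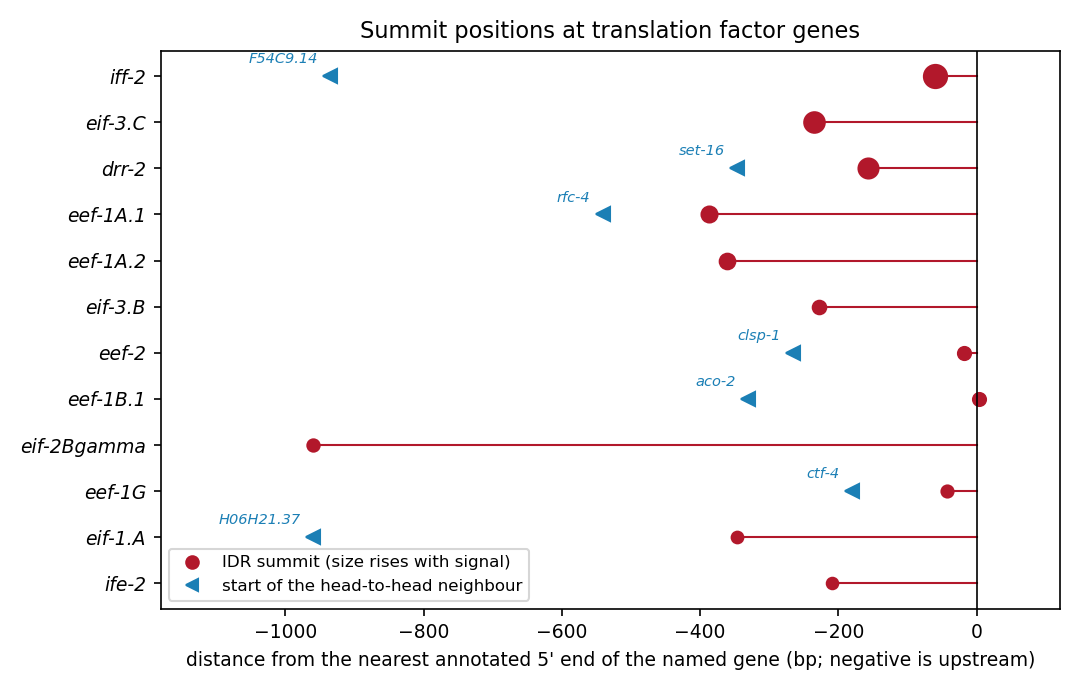
Position of the IDR summit relative to the nearest annotated 5′ end of each of the 12 genes (horizontal axis in bp, negative is upstream), with genes in order of IDR signal and larger points for higher signal. Blue triangles mark the start of a head-to-head neighbour whose 5′ end is within 1000 bp of the summit. Summits of eef-2, eef-1B.1, eef-1G and iff-2 lie within 100 bp of the gene, and that of eif-2Bgamma lies at 960 bp.

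Shares of the searched motifs in the 12 windows lay above those in all IDR windows for some motifs and below for others. Motifs were read on both strands within 100 bp of the summit. The homeodomain core, TAATTA or TAATTG or CAATTA, occurred in 1 of the 12 windows, that of eef-1A.2, and in 15.4% of all 1358 IDR windows and 21.2% of the 28562 pooled windows outside the IDR list. Its copy began 80 bp upstream of the summit, outside the 61 bases printed. GAGAG occurred in 3 windows (25%), those of drr-2, eef-1A.1 and eef-1A.2, beside 59.6% of all IDR windows and 32.3% of the pooled ones outside. The 47 IDR windows at ribosomal protein genes held it in 29.8%. Translation factor and ribosomal protein windows thus both showed a lower share of GAGAG than IDR windows in general.

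CTGCGT, seen in the printed sequences of iff-2, drr-2 and eef-1G, was a letter string these 3 windows had in common. It lay close to the summit in each, starting 2 bp after it at iff-2, 7 bp after it at drr-2 and 5 bp before it at eef-1G. The drr-2 window held 3 copies on the strand of the gene. It was present in 20.4% of all IDR windows, in 25.5% of those at ribosomal protein genes and in 6.80% of pooled windows outside the IDR list, so it is not particular to these genes.

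The GC-rich motif CCGCCC was found at drr-2 and eif-1.A, and in 11.8% of all IDR windows. The TATA box motif TATAAA was found at eif-3.B and ife-2, and in 10.5% of all IDR windows. The GATA motif AGATAA was found at eif-3.B alone, beside 19.4% of all IDR windows. The splice acceptor motif TTTCAG was found at eif-3.C, eif-3.B and eef-1G, and in 11.6% of all IDR windows. The E-box CACGTG was in none of the 12 windows and in 5.96% of all IDR windows. Pooled windows outside the IDR list held CCGCCC in 4.96%, TATAAA in 17.5%, AGATAA in 11.7%, TTTCAG in 31% and CACGTG in 4.13%. The 12 windows had a median GC content of 43.0%, close to the 44.8% of all IDR windows and above the 37.8% of pooled windows outside the list.

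Other lists of translation genes differed widely in their share. Cytosolic ribosomal protein genes had an IDR interval at 51 of 82 (62.2%), led by rpl-3 (signal 190), rpl-35 (127.7), rpl-15 (124.2) and rpl-20 (116.2). Their median signal was 37.1, near the 38.2 of the translation factor genes. With the nearest 5′ end only, 30 of the 82 were counted. Genes for cap and tail binding had 4 of 9: ifet-1, the eIF4E transporter gene (81.0), pqn-59 (44.4), larp-1 (38.6) and pab-2, a poly(A)-binding protein gene (32.2). The ifet-1 interval is the same as that of rps-1, which was nearer to it, and pab-1 was not marked. With the nearest 5′ end only, 1 of the 9 was counted.

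Genes that signal to translation had 3 of 12: mnk-1, a kinase of the eIF4E-kinase class (48.9), rheb-1, a GTPase upstream of TOR (32.9), and gcn-2, an eIF2alpha kinase (29.8). mnk-1 rested on replicate 1, with a signal of 52.4 there and no top interval overlapping in replicate 2. Release and recycling factors had 1 of 8, abcf-2 (77.4, at 865 bp), and 0 of 8 with the nearest 5′ end only. Mitochondrial ribosomal protein genes had 5 of 70 (7.14%): mrps-7 (56.0), mrpl-55 (45.5), mrpl-40 (31.6), mrpl-49 (30.8) and mrpl-37 (28.8), and 3 of 70 with the nearest 5′ end only. Aminoacyl-tRNA synthetases had 1 of 32 (3.12%), ears-2 (27.6), and mitochondrial translation factors 0 of 5. The synthetase share was thus near the background of 4.74%, while that of the cytosolic ribosomal proteins and of the translation factors stood above it. Other lists were above it too. The share was 44.4% for cap and tail binding, 25% for signalling and 12.5% for release and recycling, from 9, 12 and 8 genes. Mitochondrial ribosomal proteins, at 7.14%, were closer to the background.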

How the data were processed

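Per the README text deposited with the lists, intervals were called on ce11 alignments of each replicate and of both pooled, against a control, and the IDR list was derived from these. The caller, the aligner and the threshold of the IDR step were not named in these sources. Column 7 holds the signal deposited by the authors, on the scale of their caller. The deposited −log10 q-value takes 1 value throughout the IDR list and was not used for ranking. Summit offsets are as deposited. The ce10 lists were not used. Chromosome names and lengths of the ce11 lists fit WBcel235.

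Summits were assigned to protein-coding transcript 5′ ends in Python 3.11.15 with pandas 2.3.3, and the assignment was checked on planted summits. Replicate values come from intervals overlapping the IDR interval by at least 1 bp, or, for genes without one and for the plot by gene, from the strongest interval in the window. Named genes follow a rule by IDR, top-interval and pooled status, and neighbours of a summit are named too. Members, lists and motifs were chosen with earlier results of these data known. No test was run, since there is 1 group of 2 replicates, so the replicate values, given for the genes with an IDR interval and for some others, are the only measure of spread. Values given from the pooled list alone carry none. They are labelled biological replicates, and nothing more says that they came from separate cultures, so the spread may be technical. Alternatives covered window, nearest gene, list, interval overlap and single replicates.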

Additional observations from a re-analysis of the deposited data

How the results depend on the processing

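The count of 12 translation factor genes kept within 1.5 times of itself under the 8 alternatives, from 8 to 14, and 10 to 11 with 1 replicate left out. The genes behind these totals changed. Without replicate 2, 8 of the 12 were kept: eef-1B.1, eef-1G, eef-2 and ife-2 were lost, and eif-3.G and eif-3.I were gained. Without replicate 1 eif-1.A was lost. Each of these 2 settings used the top intervals of the remaining replicate in place of the IDR list. Counting only IDR intervals at or above the median signal left 4 initiation factor genes, 31 ribosomal protein genes, 38 genes of the other translation lists and 490 protein-coding genes. Assigning each summit to the nearest 5′ end left 30 ribosomal protein genes and 37 of those lists together, the 30 included. The elongation factor count ran from 2 without replicate 2 to 5 without replicate 1. The causes of these moves were not tested. Genes counted under all 8 alternatives were iff-2, eif-3.C, drr-2, eef-1A.2 and eif-3.B. With a 2000 bp window eif-6 and ife-3 were added, and with the strongest pooled intervals eif-3.E was. No paired analysis was possible because there is only 1 group. Depth is unknown, so a gene without an interval was not detected in these lists, which does not show that the protein is absent there.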
